A study of Mus musculus with 13 samples.

Results

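The small GTPases of the Rab family and a set of genes that regulate other small GTPases were examined in the RNA bound by Argonaute (AGO) in mouse cortex after experimental stroke. Members were taken by gene symbol: Rab followed by a digit, Arhgap, Arhgef, Rapgef, Rasgrp, Rasgrf, or Dock followed by a digit. This gave 69 of the 4652 gene names in the peak table, with 295 of 18284 peaks and 4562 of 395152 tags. A peak is a short stretch of the genome, nearly always 80 bases long, where sequenced AGO-bound fragments (tags) pile up. Tags of a gene were summed over its exonic peaks, those whose deposited region label holds a UTR or the coding sequence (CDS). By this sum 55 of the 69 members, with 250 exonic peaks and 3527 exonic tags, could be described between groups, out of 3365 genes and 198038 exonic tags in all.

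AGO CLIP immunoprecipitates AGO after ultraviolet light has fixed it to RNA, and sequences the RNA fragments it holds. The tissue was cortex of wild-type C57BL6 mice aged 7 to 8 weeks. In the stroke groups a filament blocked the middle cerebral artery (MCAO) for 35 min and tissue was taken 3 h later, either the ipsilateral, ischemic hemisphere (5 libraries, replicates 1 to 5) or the contralateral hemisphere (4 libraries, replicates 1, 2, 4 and 5). Sham mice (4 libraries, replicates 1, 2, 3 and 5) were anesthetized and had their arteries exposed with no filament put in. Each replicate number stood for 1 day of surgery, and whether a library pooled several mice, or whether both hemispheres of a day came from the same mice, was not stated in the sources used here. Complexes of high and low molecular weight were pooled in every library.

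A small GTPase is a molecular switch that is on while it holds GTP and off while it holds GDP. Guanine nucleotide exchange factors (GEFs) turn it on by letting GDP leave, and GTPase-activating proteins (GAPs) turn it off by speeding GTP hydrolysis. Rab GTPases direct the budding, transport and docking of vesicles, Rac and Cdc42 organise actin in dendritic spines and growing neurites, and Ras and Rap GTPases relay receptor signals in neurons. AGO carries microRNAs (miRNAs) to mRNAs, mostly through pairing of the miRNA seed (bases 2 to 8) with a site in the 3'UTR, and lowers their stability or translation.

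Depth was low and uneven. The shallowest library, ipsilateral replicate 5, had 2750 exonic tags and the deepest, contralateral replicate 1, had 27542, so 1 tag stood for between 0.363 and 3.64 per 10000 exonic tags. A member with 0 tags in ipsilateral replicate 5 could have had up to 10.9 per 10000 there, counting 3 tags as the limit that 0 tags allow. Such limits cover counting error only. The 3 libraries of replicate 1 stood apart: 31.3% to 41.9% of their peak tags were exonic, against 47.3% to 72.8% in the other 10 libraries. Results that rest on them are also given without them. Markers of neurons (8 of 9 listed genes with exonic tags) and astrocytes (7 of 8) carried tags in all groups, with Rbfox3 and Gfap at 0. Of 8 microglial and 8 vascular markers 1 and 2 carried any, and only Hbb-bs did of 7 blood markers. The summed neuronal markers covered 165 to 335 per 10000 exonic tags in ipsilateral libraries, 295 to 349 in contralateral and 277 to 327 in sham libraries. The astrocyte sum was 224 to 371, 327 to 475 and 287 to 364 in the same groups. The sum of the oligodendrocyte lineage (5 of 8 genes, with Mog, Mag and Olig1 at 0) was 10.9 to 46.1, 40.0 to 61.8 and 39.7 to 54.2. Their part in the values below was not tested.

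Since members were chosen by gene symbol, peaks outside UTR, CDS and intron labels (14.0% of all peaks, 0.339% of member peaks) are largely removed by the choice. Among peaks with those labels, a 3'UTR label stood on 53.7% of 294 member peaks, against 51.6% of 15723 peaks at large. A CDS label without 3'UTR stood on 31.3%, against 23.3%, and an intron label alone on 15.0%, against 24.3%. Of the members' 92 CDS peaks of this kind, 25 were in Arhgap5 alone, so the higher CDS share rests largely on 1 gene. The median peak held 11 tags in both sets. By role, the exonic tags fell on 23 Rab GTPases (69 peaks, 1194 tags), 4 Rab regulators and effectors such as Rab11fip2 (7 peaks, 55 tags), 8 Arhgap genes (79 peaks, 1095 tags), 11 Arhgef genes (41 peaks, 372 tags), 4 Rapgef genes (23 peaks, 387 tags), the Ras GEFs Rasgrp1 and Rasgrf2 (14 peaks, 241 tags) and 3 Dock genes (17 peaks, 183 tags). Tags were concentrated in few genes: the 5 members with most tags, Arhgap32, Arhgap5, Rab3c, Rab6b and Rapgef4, held 50.2% of the members' exonic tags, and 24 members held 89.1%. Tag numbers are not scaled to transcript length and give no order of expression.

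**Figure D1:**
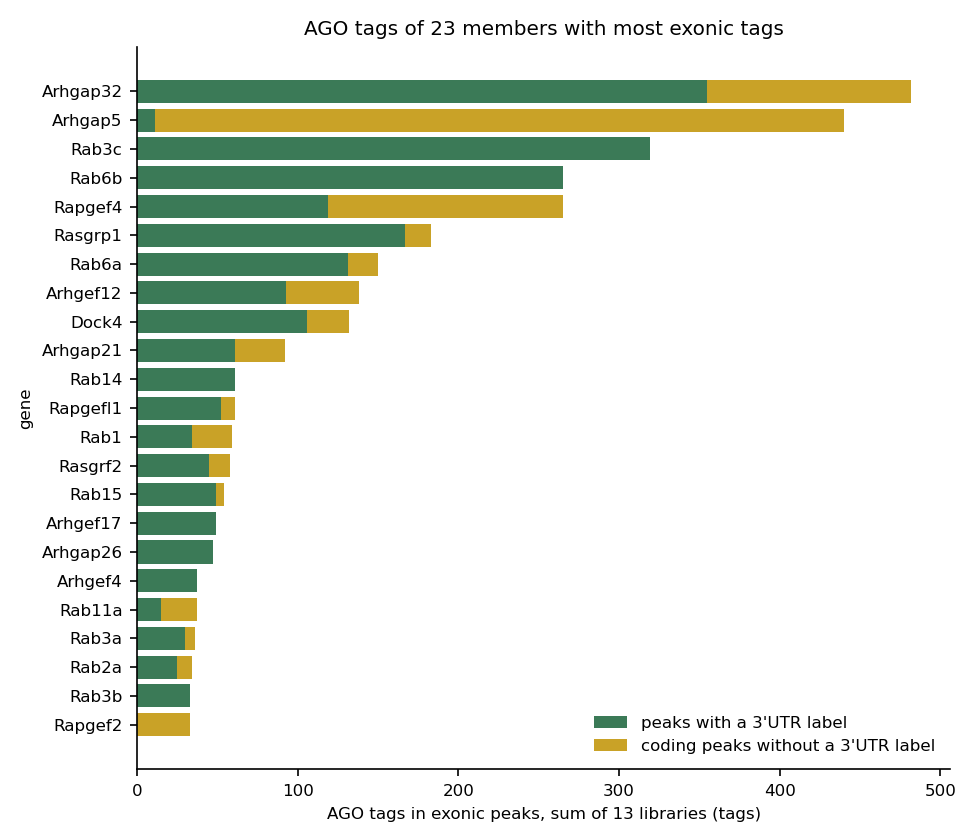
AGO tags in exonic peaks of 23 of the 24 members with most of them (horizontal axis, number of tags summed over all 13 libraries), split into CDS and 3'UTR peaks. Arhgap5 stands out as nearly all CDS, with 429 of 440 tags, while every tag of Rab3c and Rab6b lay in 3'UTR peaks.

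The 3'UTR peaks of members were searched for sites of 11 brain miRNAs, whose mature sequences were read from RefSeq (GRCm38.p6). The 5 shown here have their seeds in capitals, because the 5 member peaks with most tags among those that held a site each held a site for another one of them; each has a seed of its own.
miR-132-3p: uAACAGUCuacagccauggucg
miR-26a-5p: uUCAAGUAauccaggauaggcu
miR-30a-5p: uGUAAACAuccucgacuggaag
miR-181a-5p: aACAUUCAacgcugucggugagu
miR-125b-5p: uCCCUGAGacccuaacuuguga

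A site was a match on the transcript strand to miRNA bases 2 to 8, or to bases 2 to 7 followed by A, with a match to both called an 8mer. The letters searched were GACTGTT and ACTGTTA for miR-132-3p, TACTTGA and ACTTGAA for miR-26a-5p, TGTTTAC and GTTTACA for miR-30a-5p, TGAATGT and GAATGTA for miR-181a-5p, and CTCAGGG and TCAGGGA for miR-125b-5p. The others were ACCAAAG and CCAAAGA for miR-9-5p, CTACCTC and TACCTCA for let-7a-5p, TGGTGCT and GGTGCTA for miR-29a-3p, AGCAATA and GCAATAA for miR-137-3p, CACTGTG and ACTGTGA for miR-128-3p, and AAGCACA and AGCACAA for miR-218-5p. The 2 forms of a site share 6 letters. A match describes letters and is not evidence of pairing.

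Sites in those 5 peaks, and further miR-132-3p, miR-26a-5p and miR-30a-5p sites of members described below, are printed with the site in capitals and positions on mm10, read from GENCODE transcripts of that assembly. The first 5 match miR-132-3p, the next 5 match miR-26a-5p or miR-30a-5p, and the last 2 match miR-181a-5p and miR-125b-5p.
Rab6b, miR-132-3p, chr9:103181497-103181503, plus strand: attgccaaaaACTGTTAaaatttaaaa
Rasgrp1, miR-132-3p, chr2:117281197-117281203, minus strand: cttttgaggaGACTGTTtccatgctag
Arhgap32, miR-132-3p, chr9:32261192-32261198, plus strand: tgGACTGTTctattttttt
Arhgap32, miR-132-3p, chr9:32264305-32264311, plus strand: tctgattagtACTGTTAatgttcagag
Dock4, miR-132-3p, chr12:40845902-40845908, plus strand: tccttttactGACTGTTtataacactc
Rapgef4, miR-26a-5p, chr2:72257459-72257465, plus strand: tcattaaataTACTTGAcaagaaata
Dock4, miR-26a-5p, chr12:40845423-40845430, plus strand: gagaagtgttTACTTGAAttttgtgctt
Dock4, miR-30a-5p, chr12:40845419-40845425, plus strand: ccaggagaagTGTTTACttgaattttg
Rapgef4, miR-30a-5p, chr2:72256965-72256971, plus strand: GTTTACAttgtaacttt
Rab15, miR-30a-5p, chr12:76797984-76797991, minus strand: taaacacaaaTGTTTACAaaataaagaa
Arhgap32, miR-181a-5p, chr9:32263554-32263560, plus strand: acTGAATGTtattttcaag
Rab6b, miR-125b-5p, chr9:103181406-103181412, plus strand: aggctgggcaTCAGGGAccacgtcact

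Transcript sequence of 50 bases or more was read for 154 member 3'UTR peaks, of which 32 (20.8%), in 18 of 45 genes, held a site for any of the 11 miRNAs. Among all 7497 such 3'UTR peaks the share was 19.6%. The share for miR-132-3p was 3.25% of member peaks, against 1.64% of all, and by tags it was 6.53% against 1.55%. For miR-26a-5p it was 3.90% against 2.47%, for miR-30a-5p 3.90% against 2.32%, for miR-181a-5p 1.95% against 1.91% and for miR-125b-5p 1.30% against 1.15%. For miR-128-3p it was 3.25% against 2.57% by peaks, and 1.91% against 2.69% by tags. Of the 5 member peaks with its site, 2 in Rab34 overlap and hold the same 1. Shares by peaks were lower in members for miR-9-5p (1.30% against 2.40%), let-7a-5p (1.30% against 1.52%), miR-137-3p (1.30% against 1.91%) and miR-218-5p (0.649% against 1.57%). By tags they were 5.43% against 2.91% for miR-26a-5p and 4.41% against 2.37% for miR-30a-5p. No member peak held a site for miR-29a-3p, which 1.69% of all 3'UTR peaks held. These shares rest on 1 to 6 member peaks per miRNA where any was found, and were not tested. The Rab6b peak with the miR-132-3p site held 76 tags of the 154 in the 5 member peaks with such a site.

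**Figure D2:**
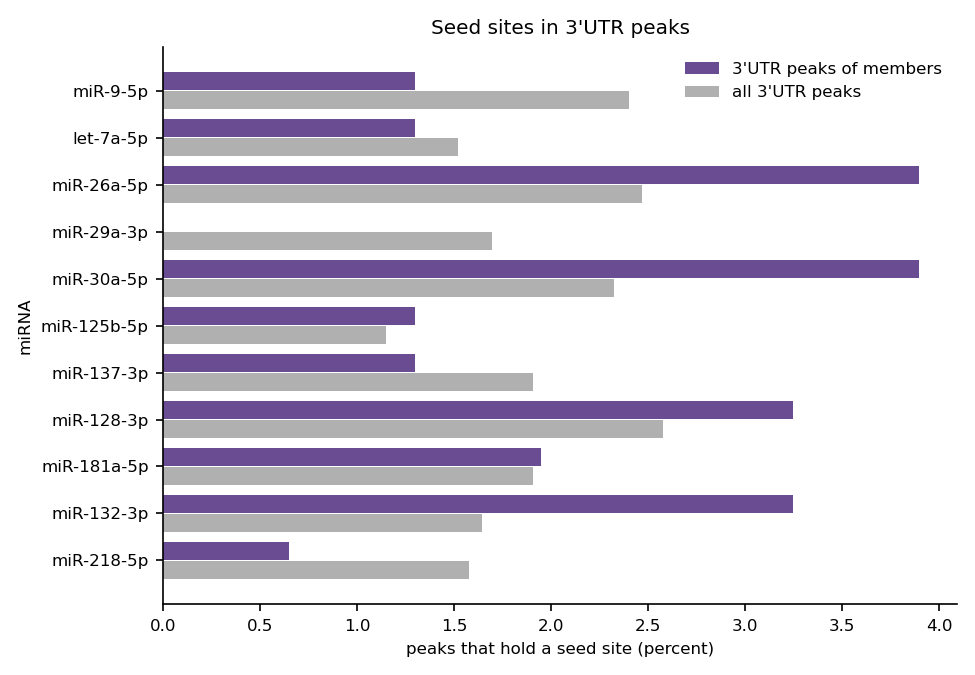
Percent of 3'UTR peaks (horizontal axis) that hold a site for each of 11 miRNAs, for the 154 member peaks and for all 7497 3'UTR peaks. The bars for miR-26a-5p, miR-30a-5p, miR-132-3p and miR-128-3p are longer for members, on 5 or 6 peaks each. Of the 5 peaks for miR-128-3p, 2 overlap and share 1 site. Those for miR-9-5p, let-7a-5p, miR-137-3p and miR-218-5p are shorter, and there is no member bar for miR-29a-3p.

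The question put to these genes was whether the AGO tags they carried differed between the ischemic hemisphere and the contralateral or sham cortex. A difference in tags may come with a change in mRNA or in AGO binding, which these data cannot tell apart, and in bulk cortex fewer cells of a type and less RNA per cell cannot be told apart either. The edgeR quasi-likelihood test on exonic gene sums could be run on 436 genes with enough tags, among them 10 members (Arhgap32, Arhgap5, Arhgap21, Rab3c, Rab6b, Rab6a, Rapgef4, Rasgrp1, Arhgef12 and Dock4), each with 92 to 482 tags. The other 45 members with exonic peaks had 3 to 79 tags, with a median of 16, and did not enter it. In the ischemic hemisphere against sham, edgeR called 0 of the 10 members at an adjusted p under 0.05, and 0 at an unadjusted p under 0.05, where 0.229% (1 gene, the heat shock gene Hspa1b) and 9.40% of all 436 genes were called. Against contralateral it again called 0 members, and 1 member, Arhgef12, at an unadjusted p under 0.05, where 0% and 12.2% of all genes passed. Between contralateral and sham the member counts were 0 and 0, beside 0% and 1.61%. DESeq2 called 0 members in each comparison, with an adjusted p given for 55, 6 and 55 of them, and 1, 4 and 1 of 55 members at an unadjusted p under 0.05, or 1.82%, 7.27% and 1.82%. Among all genes DESeq2 called 0, 6 and 0, with an adjusted p given for 3363, 234 and 3363 of 3365, so these counts are not on equal sets. Of the 3365 genes 2.47%, 3.18% and 0.921% had an unadjusted p under 0.05. In this edgeR test 0, 1 and 0 of 10 members had an unadjusted p under 0.05. Such counts are too small to be told from the shares of all 436 genes. In DESeq2 the members' share was below that of genes at large in ipsilateral against sham. It was above it, on 4 and 1 members, in the other comparisons.

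The direction of the mean shares was also near that of all genes. In ipsilateral libraries 27 of 55 members had a higher mean share than in sham, or 49.1%, beside 46.5% of all 3365 genes. Against contralateral it was 28 of 55 (50.9%, beside 50.1%), and in contralateral against sham 26 of 55 (47.3%, beside 45.8%). No tested member had shares that did not overlap between groups, which 3.21%, 3.90% and 2.29% of tested genes did in the comparisons of ipsilateral with sham, ipsilateral with contralateral, and contralateral with sham. All members together took 199 ± 35.1 of 10000 exonic tags in ipsilateral libraries (SD, n = 5), 191 ± 30.9 in contralateral and 165 ± 11.2 in sham libraries (SD, n = 4 each). Ipsilateral values ran from 140 to 233, across the whole sham range of 155 to 180. The 140 was replicate 1, and replicates 2 to 5 (207, 197, 216 and 233) lay above every sham library. The ratio of means was 1.2 to sham and 1.04 to contralateral. Without the 3 libraries of replicate 1 it was 1.27 and 1.06. These sums were not tested.

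**Figure D3:**
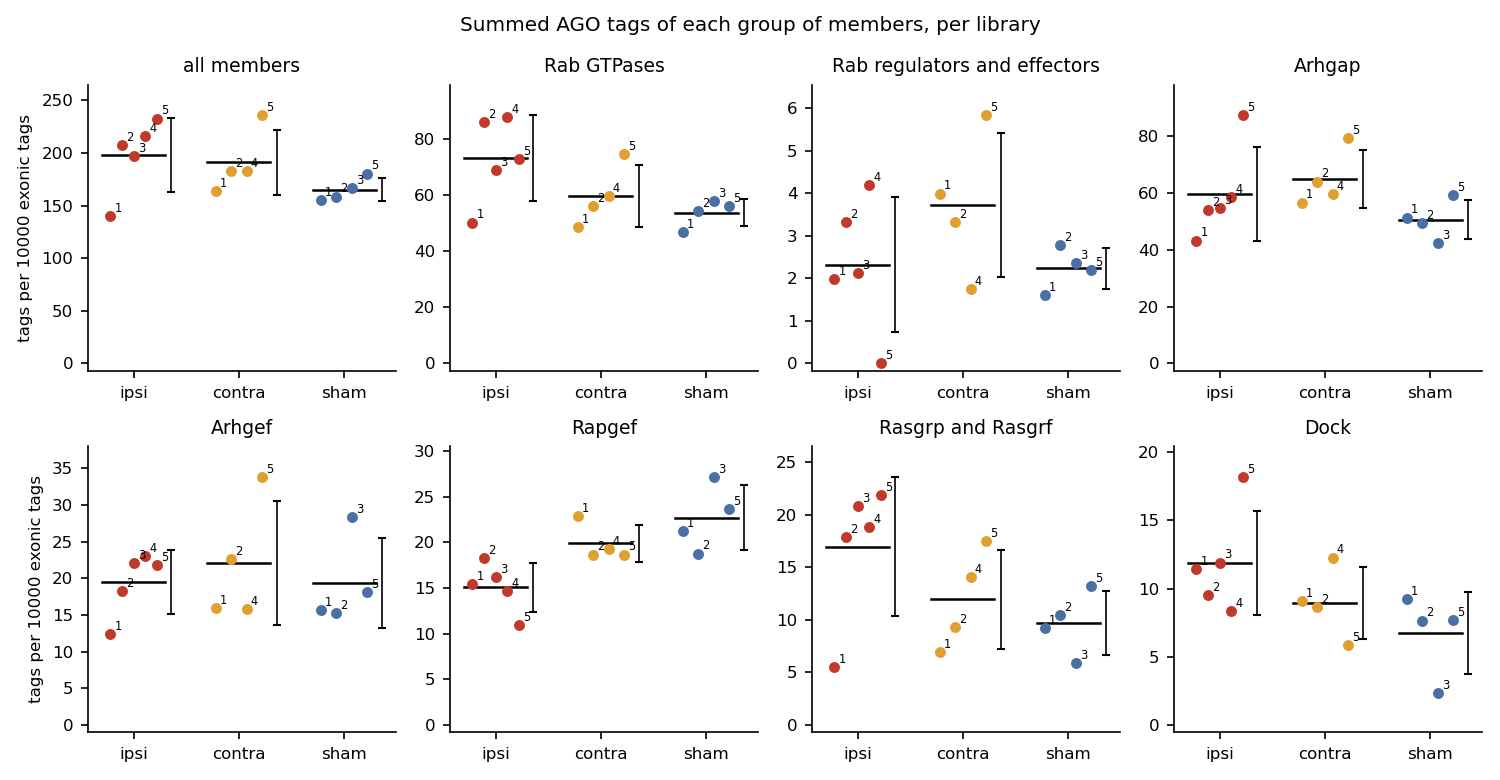
Summed exonic AGO tags of each role group per 10000 exonic tags (vertical axis), 1 point per library with its replicate number; black lines are group means and bars 1 SD, and ipsi and contra are the ipsilateral and contralateral libraries. The Rapgef points of ipsilateral libraries (10.9 to 18.3) lie below those of contralateral (18.7 to 22.9) and sham (18.8 to 27.2), and in the other panels the groups overlap.

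Among the Rab GTPases, the summed share was 50.2, 85.9, 68.9, 87.9 and 72.7 per 10000 in ipsilateral replicates 1 to 5. It was 48.7, 56.0, 59.6 and 74.6 in contralateral replicates 1, 2, 4 and 5, and 46.9, 54.2, 57.8 and 56.1 in sham replicates 1, 2, 3 and 5. Ipsilateral libraries 2 to 5 lay above every sham library, replicate 1 lay within the sham range, and on each of the 4 days with both the ipsilateral value was above the sham value. The contralateral value was also above the sham value on each of the 3 days with both. The ipsilateral value was above the contralateral one on 3 days and below it on 1. In mean share 16 of 23 Rab genes were higher in ipsilateral libraries than in sham, and 16 of 23 than in contralateral, or 69.6%, beside 46.5% and 50.1% of all genes. These 2 counts share the ipsilateral libraries. The ratio of the mean sums was 1.36 to sham and 1.22 to contralateral, and 1.41 and 1.24 without the libraries of replicate 1. Rab GTPases in the contralateral hemisphere were higher than in sham for 11 of 23.

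Rab3c belongs to the Rab3 group that acts in the release of synaptic vesicles. Its 319 tags came from 9 peaks, all in its last exon (exon 5, chr13:110054187-110062002, minus strand), which holds the 3'UTR. Its share was 15.4, 25.3, 17.0, 23.0 and 14.5 in ipsilateral replicates 1 to 5, against 10.5, 8.66, 26.3 and 28.0 in contralateral and 8.83, 13.9, 16.5 and 19.2 in sham libraries. The ipsilateral and sham ranges overlapped, and the contralateral libraries held the lowest value and the 2 highest. The log2 fold change was 0.42 against sham (SE 0.34, edgeR adjusted p = 0.694) and 0.22 against contralateral (SE 0.34, edgeR adjusted p = 0.830). Rab3a, the main Rab of synaptic vesicles, had 36 tags, and Rab3b 33.

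Rab6b is the form of Rab6 enriched in brain, and both forms act in traffic at the Golgi. All 265 tags of Rab6b lay in 7 peaks of its last exon (exon 8, chr9:103181182-103185276, plus strand), where the peak with the miR-132-3p site overlaps the one with the miR-125b-5p site printed above. Its share was 10.4, 17.9, 17.0, 10.5 and 32.7 in ipsilateral libraries, against 9.08, 14.7, 14.0 and 17.5 in contralateral and 10.4, 10.4, 14.2 and 13.2 in sham libraries. Ipsilateral replicates 2, 3 and 5 were above every sham library, and replicates 1 and 4 were level with the lowest ones. The fold change was 0.42 on the log2 scale against sham (SE 0.29, edgeR adjusted p = 0.616) and 0.30 against contralateral (SE 0.29, edgeR adjusted p = 0.672). The peak with the miR-132-3p site held 9, 10, 6, 1 and 4 tags in ipsilateral libraries, against 9, 7, 0 and 5 in contralateral and 10, 4, 5 and 6 in sham. Pooled over libraries that is 3.99, 3.70 and 3.79 per 10000 exonic tags, so the pooled level of this peak was close in the 3 groups.

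Rab6a had shares of 5.97, 11.6, 7.23, 14.7 and 7.27 in ipsilateral libraries, against 5.45, 8.66, 7.02 and 12.8 in contralateral and 6.42, 8.34, 5.90 and 4.40 in sham libraries. Ipsilateral replicates 2 and 4 were above all sham libraries and the rest lay among them. Its log2 fold change against sham was 0.50 (SE 0.36, edgeR adjusted p = 0.639), and against contralateral 0.17 (SE 0.36, edgeR adjusted p = 0.880). The values of Rab3c, Rab6b and Rab6a against sham thus all had a positive sign, with an SE of 0.29 to 0.36.

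Rab14, which acts between the Golgi and endosomes, had 61 tags, too few for the edgeR filter. Its share was 0.994, 7.47, 6.80, 4.19 and 3.64 in ipsilateral libraries, against 1.82, 0.667, 0 and 1.17 in contralateral and 2.01, 4.87, 1.18 and 1.10 in sham libraries. Ipsilateral replicates 2 to 5 were above every contralateral library and replicate 1 was within their range. The exact two-sided permutation test over libraries gave p = 0.0397 against contralateral and p = 0.198 against sham. With no filter, edgeR gave an adjusted p of 0.303 against contralateral. In that unfiltered edgeR test 5, 8 and 5 of 55 members had an unadjusted p under 0.05 in ipsilateral against sham, ipsilateral against contralateral, and contralateral against sham, beside 9.78%, 9.99% and 6.39% of 3365 genes, so that the members' share was the higher in the last 2. In that test 0 members had an adjusted p under 0.05 in any, beside 0.0594%, 0.0594% and 0% of genes.

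Rab15, which acts in recycling from endosomes, had an opposite sign. Its shares were 0.994, 0.415, 1.28, 4.19 and 0 in ipsilateral libraries, against 3.99, 4.00, 7.02 and 0 in contralateral and 4.01, 2.09, 5.90 and 3.85 in sham libraries. That is 8 tags in ipsilateral, 21 in contralateral and 25 in sham libraries. Ipsilateral replicate 4 reached into the sham range on 2 tags, and the 0 in ipsilateral replicate 5 allows up to 10.9. The exact two-sided permutation test gave p = 0.0556 against sham, where 0.00794 is the smallest value it could give. Rab11a, a Rab of recycling endosomes, had lower shares in every contralateral library (1.45, 1.33, 0 and 1.17) than in any sham library (1.60, 2.09, 2.36 and 2.20), on 7 and 13 tags. The 0, in contralateral replicate 4, allows up to 5.26 per 10000, above every sham value. The exact permutation p was 0.0286, the smallest that 4 against 4 libraries allow, while edgeR with no filter gave a log2 fold change of -0.73 and an adjusted p of 0.904. Shares did not overlap in 1 of 55 members in this comparison, beside 2.64% of all 3365 genes. In ipsilateral against sham and ipsilateral against contralateral it was 0 of 55, beside 2.59% and 1.78%. Its ipsilateral shares, 0.497, 3.74, 1.28, 6.28 and 3.64, overlapped both. Rab1 and Rab2a, which act between the endoplasmic reticulum and the Golgi, had 27, 10 and 22 tags and 18, 10 and 6 tags in ipsilateral, contralateral and sham libraries.

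The 8 Arhgap genes, which encode GAPs, summed to 59.6 ± 16.5 per 10000 in ipsilateral libraries (SD, n = 5), against 64.9 ± 10.1 in contralateral and 50.6 ± 6.95 in sham libraries (SD, n = 4 each), with overlapping ranges. Arhgap32, also known as p250GAP, is a GAP of dendritic spines and a known target of miR-132 in neurons. In all it had 482 tags in 35 peaks, 26 of them with 402 tags in the last exon (exon 22, chr9:32258902-32268446, plus strand), and 2 of those hold the miR-132-3p sites shown above with 21 and 13 tags. Its share was 13.9, 28.2, 26.4, 23.0 and 40.0 in ipsilateral libraries, against 24.7, 30.0, 17.5 and 33.8 in contralateral and 18.9, 22.3, 17.7 and 30.8 in sham libraries. The ipsilateral group held both the lowest and the highest value. On the log2 scale the fold change was 0.11 against sham (SE 0.25, edgeR adjusted p = 0.918) and -0.10 against contralateral (SE 0.25, edgeR adjusted p = 0.899), and the sign of each turned under an alternative.

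Arhgap5, or p190B, is also a GAP. Of its 440 tags 429 (97.5%) lay in CDS peaks, 25 of them in exon 2 (chr12:52516107-52519967, plus strand), a single exon of 3861 bases that holds 3720 of the 4509 coding bases. At 100 exonic tags or more, only 13 of 448 genes (2.90%) had a CDS share that high, and the median CDS share was 15.3%. The most covered peak, at chr12:52519350-52519429, held 131 tags, and the other 24 of the exon at most 23 each. Shares of the gene were 22.9, 20.3, 20.4, 25.1 and 29.1 in ipsilateral libraries, against 24.3, 22.7, 17.5 and 30.3 in contralateral and 27.7, 16.7, 15.3 and 18.7 in sham libraries. Values of the 3 groups overlapped, and the log2 fold change was 0.16 against sham (SE 0.25, edgeR adjusted p = 0.979) and -0.04 against contralateral (SE 0.25, edgeR adjusted p = 0.972).

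Arhgap21, a GAP for Cdc42 at the Golgi, had shares of 3.48, 2.91, 2.55, 2.09 and 10.9 in ipsilateral libraries, against 3.27, 6.00, 17.5 and 8.16 in contralateral and 2.41, 6.95, 4.72 and 7.15 in sham libraries. Ipsilateral replicates 1 to 4 lay near the low end and replicate 5, with 3 tags, above every sham library. In log2 units the fold change was -0.59 against sham (SE 0.53, edgeR adjusted p = 0.717) and -1.08 against contralateral (SE 0.54, edgeR adjusted p = 0.397). Arhgap26, an endocytic GAP, had 20, 18 and 9 tags in ipsilateral, contralateral and sham libraries.

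**Figure D4:**
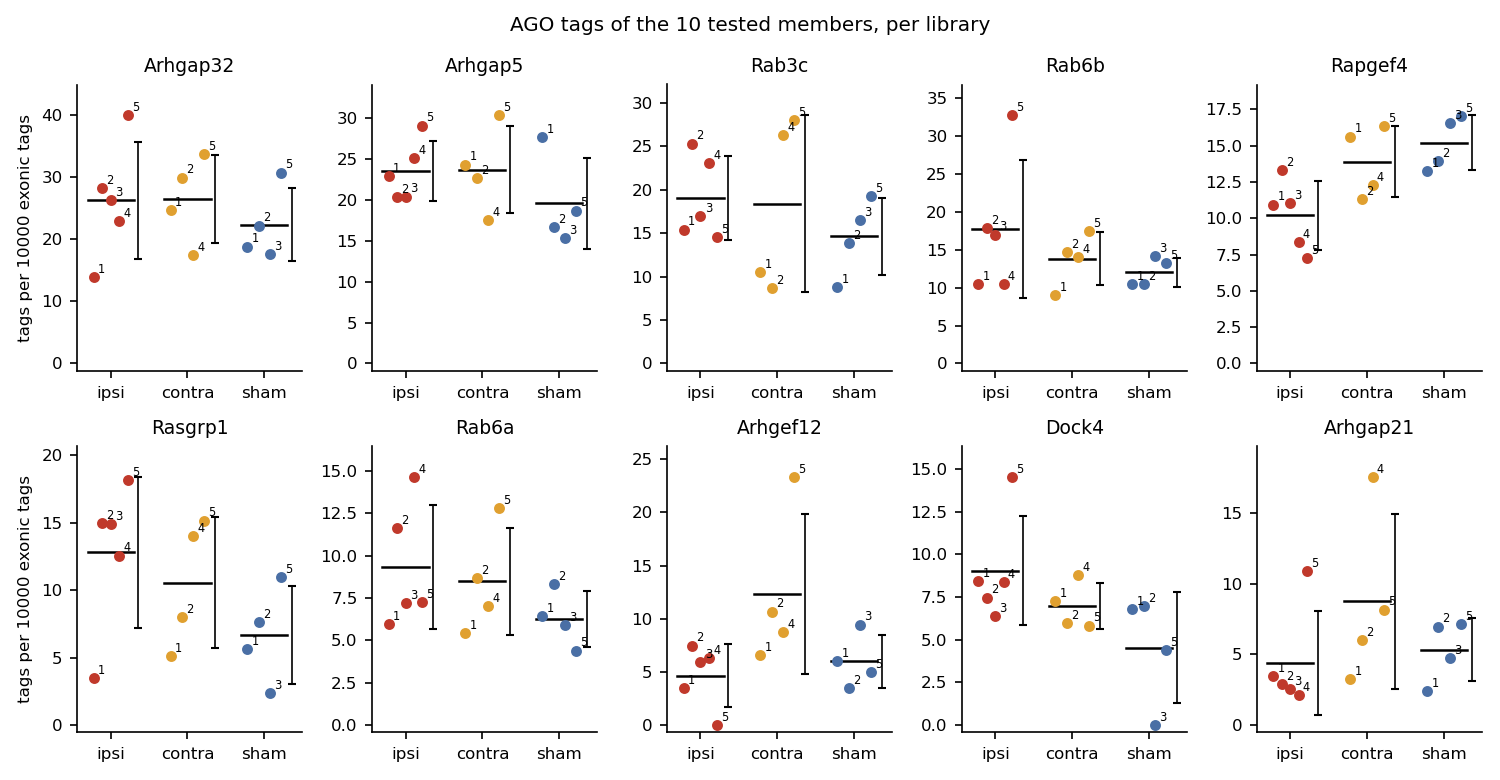
Exonic AGO tags of the 10 members tested by edgeR, per 10000 exonic tags (vertical axis), 1 point per library with its replicate number; black lines are group means and bars 1 SD. In every panel the ipsilateral points overlap those of contralateral and sham libraries; the ipsilateral means of Rapgef4, Arhgef12 and Arhgap21 lie below their sham means, and those of the other 7 above.

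The 11 Arhgef genes encode GEFs, and their summed share was 19.5 ± 4.36 in ipsilateral libraries (SD, n = 5), 22.1 ± 8.47 in contralateral and 19.4 ± 6.12 in sham libraries (SD, n = 4 each). Of the 11, 2 had a higher mean share in ipsilateral libraries than in sham (18.2%) and 4 than in contralateral (36.4%). Arhgef12, or LARG, couples G protein receptors to RhoA. Its share was 3.48, 7.47, 5.95, 6.28 and 0 in ipsilateral libraries, against 6.54, 10.7, 8.77 and 23.3 in contralateral and 6.02, 3.48, 9.44 and 4.95 in sham libraries. Only ipsilateral replicate 2 exceeded the lowest contralateral library, and contralateral replicate 5 was the highest of all 13. By edgeR the log2 fold change was -1.10 against contralateral (SE 0.46, edgeR adjusted p = 0.346, range 0.235 to 0.613 over the alternatives) and -0.13 against sham (SE 0.48, edgeR adjusted p = 0.972). In contralateral against sham it was 0.97 (SE 0.47, edgeR adjusted p = 0.994). The exact two-sided permutation test of the shares gave p = 0.0159 for ipsilateral against contralateral, and 0.385 after Benjamini-Hochberg adjustment over the 436 genes. Arhgef17 had 19, 19 and 11 tags and Arhgef4 16, 7 and 14 in ipsilateral, contralateral and sham libraries.

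The Dock proteins are GEFs of Rac and Cdc42 with a catalytic domain unlike that of the Arhgef proteins. The 3 genes with exonic tags summed to 11.4, 9.55, 11.9, 8.38 and 18.2 per 10000 in ipsilateral libraries, against 9.08, 8.66, 12.3 and 5.83 in contralateral and 9.23, 7.65, 2.36 and 7.70 in sham libraries. Only ipsilateral replicate 4 lay within the sham range, and on each of 4 days the ipsilateral value was above the sham value. With all peaks set against all peak tags, the ipsilateral range of 11.5 to 13.3 lay inside the sham range of 7.26 to 13.6, day 2 was reversed, and the ratio of means was 1.12 in place of 1.77. Dock4, which activates Rac, held 132 of their 183 exonic tags. One of its 3'UTR peaks, chr12:40845407-40845486 with 15 tags, holds the overlapping miR-30a-5p and miR-26a-5p sites shown above and a further miR-26a-5p site. Shares of Dock4 were 8.45, 7.47, 6.38, 8.38 and 14.5 in ipsilateral libraries, against 7.26, 6.00, 8.77 and 5.83 in contralateral and 6.82, 6.95, 0 and 4.40 in sham libraries. Ipsilateral replicate 3 lay within the sham range and the other 4 above it. Its log2 fold change was 0.70 against sham (SE 0.46, edgeR adjusted p = 0.598) and 0.28 against contralateral (SE 0.46, edgeR adjusted p = 0.850). The exact permutation p against sham was 0.0476, and 0.451 after adjustment over the 436 genes. Sham replicate 3 had 0 tags, which allows up to 3.54 per 10000.

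The Rapgef genes encode GEFs of Rap, and their summed share was the only one of the 7 role groups in which the ipsilateral libraries overlapped neither other group. The 4 genes, Rapgef4, Rapgefl1, Rapgef2 and Rapgef1, summed to 15.4, 18.3, 16.2, 14.7 and 10.9 in ipsilateral libraries, against 22.9, 18.7, 19.3 and 18.7 in contralateral and 21.3, 18.8, 27.2 and 23.6 in sham libraries. The means were 15.1 ± 2.69 (SD, n = 5), 19.9 ± 2.02 and 22.7 ± 3.57 (SD, n = 4 each). Ipsilateral replicate 2 at 18.3 came close to contralateral replicates 2 and 5, and to sham replicate 2. It was 0.395 below contralateral replicate 2, less than the 0.415 that 1 tag stands for in it, so 1 more tag would make the groups overlap. Among single tested genes 3.21% did not overlap between ipsilateral and sham, and 3.90% between ipsilateral and contralateral. No such share was computed for sums over genes. On each of 4 days the ipsilateral value was below the sham value, and on each of 4 below the contralateral value. All 4 genes had a lower mean share than in sham, and 3 of 4 than in contralateral. Leaving out any 1 library gave ratios of the means of 0.628 to 0.71 against sham and 0.719 to 0.811 against contralateral, beside 0.664 and 0.759 with all libraries. When all peaks of the genes were summed and set against all peak tags, the ipsilateral range of 5.14 to 13.2 overlapped both the contralateral one of 10.5 to 13.8 and the sham one of 8.03 to 16.2. With 3'UTR peaks set against 3'UTR tags, the ipsilateral range of 2.82 to 10.7 overlapped the contralateral one of 9.11 to 22.7. It lay below the sham one of 12.7 to 21.9. A sum over genes chosen by name has no test here.

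Rapgef4, or Epac2, is a Rap GEF switched on by cyclic AMP and held 265 of the 387 tags. Its shares were 10.9, 13.3, 11.1, 8.38 and 7.27 in ipsilateral libraries, against 15.6, 11.3, 12.3 and 16.3 in contralateral and 13.2, 13.9, 16.5 and 17.0 in sham libraries. Ipsilateral replicate 2 lay just above the lowest sham library and the other 4 lay below the sham range. The log2 fold change was -0.47 against sham (SE 0.25, edgeR adjusted p = 0.529, range 0.318 to 1.00 over the alternatives) and -0.32 against contralateral (SE 0.26, edgeR adjusted p = 0.605). The exact permutation p was 0.0238 against sham and 0.447 after adjustment over the 436 genes. Without the 3 libraries of replicate 1 the value against sham was -0.56 (edgeR adjusted p = 0.363). The 3'UTR peak with the miR-26a-5p site held 11 tags in ipsilateral, 18 in contralateral and 19 in sham libraries, or 1.46, 3.17 and 2.88 per 10000 pooled exonic tags, and the one with the miR-30a-5p site 8, 13 and 16 tags, or 1.06, 2.29 and 2.43. Both peaks were lower in the ipsilateral pool, on few tags and with no test. Rapgefl1 had 18, 20 and 23 tags in ipsilateral, contralateral and sham libraries, and Rapgef2, covered by 1 CDS peak, had 10, 11 and 12.

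The Ras GEFs Rasgrp1 and Rasgrf2 link calcium to Ras, Rasgrp1 through calcium and diacylglycerol and Rasgrf2 through calmodulin. Together they took 5.47, 17.9, 20.8, 18.8 and 21.8 per 10000 in ipsilateral libraries, against 6.90, 9.33, 14.0 and 17.5 in contralateral and 9.23, 10.4, 5.90 and 13.2 in sham libraries. Ipsilateral replicates 2 to 5 lay above every contralateral and sham library, and replicate 1 below all of them. The ratio of the means to sham was 1.75, and 2.02 without the libraries of replicate 1. Rasgrp1 alone had 3.48, 14.9, 14.9, 12.6 and 18.2 in ipsilateral libraries, against 5.08, 8.00, 14.0 and 15.2 in contralateral and 5.62, 7.65, 2.36 and 11.0 in sham libraries. Replicates 2 to 5 were again above every sham library.

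The log2 fold change of Rasgrp1 was 0.75 against sham (SE 0.43, edgeR adjusted p = 0.529, range 0.187 to 1.00 over the alternatives) and 0.34 against contralateral (SE 0.43, edgeR adjusted p = 0.768). Without ipsilateral replicate 1 it was 1.07 against sham, and without all 3 libraries of replicate 1 it was 0.87 (edgeR adjusted p = 0.233). The exact permutation p against sham was 0.103. Its 3'UTR peak with the miR-132-3p site held 2, 12, 7, 2 and 0 tags in ipsilateral libraries, against 0, 2, 2 and 0 in contralateral and 3, 3, 0 and 2 in sham libraries. Pooled, that is 3.06, 0.704 and 1.21 per 10000 exonic tags, and 19 of the 23 ipsilateral tags came from replicates 2 and 3. Rasgrf2 had shares of 1.99, 2.91, 5.95, 6.28 and 3.64 in ipsilateral libraries, against 1.82, 1.33, 0 and 2.33 in contralateral and 3.61, 2.78, 3.54 and 2.20 in sham libraries. Its lowest ipsilateral library lay below the highest contralateral one, and the exact permutation p was 0.0397 against contralateral and 0.325 against sham. With no filter, edgeR gave an adjusted p of 0.505 against contralateral.

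**Figure D5:**
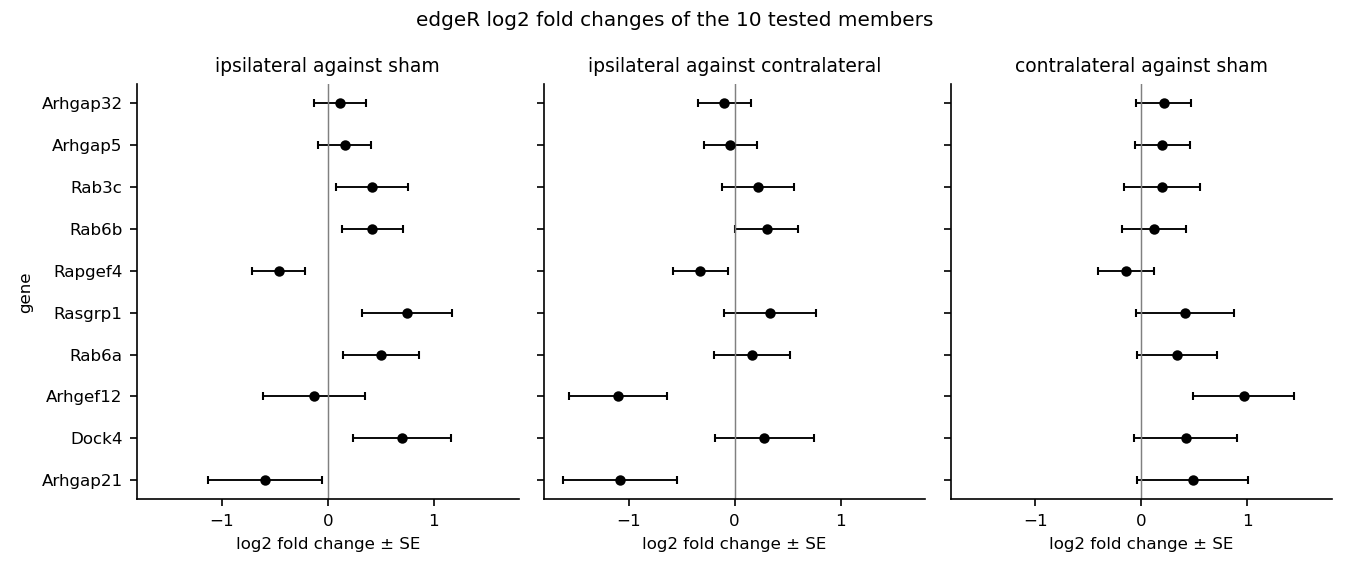
Log2 fold change of the 10 tested members (horizontal axis) with 1 SE, from edgeR, for ipsilateral against sham, ipsilateral against contralateral, and contralateral against sham. Against sham the values run from -0.59 for Arhgap21 to 0.75 for Rasgrp1, and none passed an adjusted p of 0.05 in any comparison.

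In contralateral against sham the tested members ran from -0.14 for Rapgef4 to 0.97 for Arhgef12 on the log2 scale, each with an edgeR adjusted p of 0.994. The median over the 10 was 0.27, beside -0.01 over the 436 genes. It was 0.29, beside -0.02, for ipsilateral against sham, which shares the sham libraries, and 0.06, beside 0.01, for ipsilateral against contralateral.

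Tags outside exonic peaks came mostly from the libraries of replicate 1, with 681 of the members' 1035. This is not particular to members. Over all peaks these libraries were the deepest, with 64216 to 71027 tags against 3780 to 36106 in the others. They also had the lowest exonic share, 31.3% to 41.9% against 47.3% to 72.8%. A single intronic peak of Rab5a, a Rab of early endosomes, at chr17:53501415-53501494, held 204 tags, of which 78 were in ipsilateral replicate 1, 37 in contralateral replicate 1 and 42 in sham replicate 1. Single intronic peaks of Dock9 (78 of 87 tags), Rab12 (60 of 74) and Dock4 (37 of 49) were likewise mostly from replicate 1. In Dock2, a Rac activator of blood cells, 43 of the 123 intronic tags in 10 peaks were from replicate 1. It was one of 14 members with no exonic peak, which held 9 to 123 tags each.

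Other genes of the same pathways, which the symbols above do not cover, were read from a list of 142 GTPases, GEFs, GAPs and related regulators. Of these 73 had exonic tags and 11 entered the edgeR test, and 0 passed an adjusted p of 0.05 in any comparison (1, 1 and 0 at an unadjusted p under 0.05 in ipsilateral against sham, ipsilateral against contralateral, and contralateral against sham). Those tested included 3 of 35 genes of the Ras branch and 2 of 32 of the Arf branch, and 0 of 31 of the Rab branch and 0 of 3 of the Ran branch. Sipa1l1, a Rap GAP of dendritic spines and so of opposite action to the Rapgef genes, had shares of 17.9, 14.5, 17.0, 10.5 and 21.8 in ipsilateral libraries, against 29.8, 32.7, 35.1 and 35.0 in contralateral and 20.5, 21.6, 33.1 and 25.3 in sham libraries. All 5 ipsilateral libraries were below all 4 contralateral ones. Shares did not overlap in this comparison for 17 of 436 tested genes (3.90%). The log2 fold change was -0.98 against contralateral (SE 0.23, edgeR adjusted p = 0.106) and -0.61 against sham (SE 0.23, edgeR adjusted p = 0.376). With the day of surgery as a replicate block the value against contralateral was -1.05 (SE 0.25, edgeR adjusted p = 0.0497), which passed the threshold. That setting called 4 of 436 genes in this comparison, and 1 of the 11 tested genes of the list. Nf1, a Ras GAP, had a log2 fold change of 0.47 against sham (SE 0.24, edgeR adjusted p = 0.529).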

How the data were processed

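AGO CLIP of mouse cortex was analysed in 13 libraries (5 ipsilateral, 4 contralateral, 4 sham). The authors deposited counts, whole numbers of tags per AGO peak and library, not normalized. Reads were aligned to mm10 with Novoalign per the submitters' processing notes, with no version; no source used here gives the peak caller or any collapsing of duplicates, so tags may not be independent molecules. The deposited miRNA table was not used here. One row with no position (44 tags) was left out.

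Exonic peaks were summed per gene. Of the members' 250 exonic peaks 63 overlapped another of the same gene, and whether a tag could be counted in both was not stated. Some overlapping peaks had the same count in each of the 13 libraries. Those of Arhgap32 at chr9:32255454-32255533 and chr9:32255486-32255565, with 8 tags each, are an example. Gene sums may therefore count a tag more than 1 time. Shares are tags per 10000 exonic tags of a library. Groups came from the sample labels, which call the samples biological replicates. Gene sums were tested with edgeR 4.0.16 (R 4.3.3; quasi-likelihood, TMM, filterByExpr, all 13 libraries in 1 fit, two-sided, Benjamini-Hochberg over 436 genes, 63.4% of exonic tags). The test was also run on counts simulated with 1 spread for all genes and no effect of day. That run cannot show how the test performs on these libraries, where days differ. SE is the log2 fold change divided by the root of F. For some genes the edgeR p is larger than this SE alone would give, such as Arhgap5 in ipsilateral against sham (edgeR unadjusted p = 0.892). Shares of single genes were compared with exact permutation tests of the difference of means (126, 126 and 70 arrangements). DESeq2 1.42.0 was the alternative test; other alternatives were RLE or no normalization factors, no filter, other peak sets, 2 groups only, a replicate block, libraries left out, and a robust edgeR fit chosen after seeing the data.

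Replicate numbers pair the libraries because each stands for a day of surgery per the labels. Deviations of same-day libraries from their group means correlated at -0.0113 to 0.541 (11 pairs, median 0.259), against a median of -0.0773 over 45 pairs of different days. Members, gene lists and markers were chosen with earlier results of these data known. The text names the 24 members with most exonic tags (1 is not reported here), the tested members with the smallest p in each direction, and any called; further genes (Rab5a, Dock2, Dock9, Rab12, Rapgef1, Rab11fip2, Sipa1l1 and Nf1) were named after their values were seen. Exons came from GENCODE release M21 (GRCm38, the assembly of mm10), matched by symbol for 68 of 69 members, and miRNAs from RefSeq, matched for all of the 12 listed but miR-124-3p.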

Additional observations from a re-analysis of the deposited data

Results flagged for a closer look

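Of 93 groups of 4 or 5 libraries examined, 5 held a library far from the rest of its group by Dixon's criterion, where chance gives about 1 in 20. Dock4 was at 14.5 per 10000 exonic tags in ipsilateral replicate 5, with the other ipsilateral libraries at 6.38 to 8.45, and Arhgap21 was at 10.9 there, with the others at 2.09 to 3.48. That library is the shallowest, and these are 4 and 3 tags. Rab3b was at 5.97 in ipsilateral replicate 1, on 12 tags, with the others at 0 to 0.85. The summed Rapgef share was 22.9 in contralateral replicate 1, beside 18.7 to 19.3, and the summed share of Rasgrp1 and Rasgrf2 was 5.47 in ipsilateral replicate 1, beside 17.9 to 21.8.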

How the results depend on the processing

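No member was called in any comparison under any setting run, and the replicate block changed no member's call. The number of all genes called in ipsilateral against sham (1) was 0 with DESeq2 and with all peaks, 2 with no filter, 5 with the replicate block, 2 without the 3 libraries of replicate 1, and 0 to 10 with 1 library left out. In ipsilateral against contralateral (0) it was 6 with DESeq2, 2 with no filter, 4 with the replicate block, 3 with the robust fit, 3 without the libraries of replicate 1, and 0 to 10 with 1 library left out. DESeq2 gave an adjusted p for only 234 genes in that comparison. Both counts of 10 came without ipsilateral replicate 1. With 3'UTR peaks alone the Rapgef ratio was 0.504 to sham and 0.545 to contralateral, but the ipsilateral and contralateral ranges then overlapped. Signs turned in 15 log2 fold changes of single members, all small. In ipsilateral against sham, Arhgap32 was at -0.0492 with 3'UTR peaks, and Arhgef12 at 0.0531 without the libraries of replicate 1 and at -0.331 to 0.0776 with 1 library out (0.00333 without ipsilateral replicate 1, 0.0124 without ipsilateral replicate 5). In ipsilateral against contralateral, Arhgap5 was at 0.0304 with the replicate block and at -0.166 to 0.0457 with 1 library out, where Arhgap32 was at -0.251 to 0.0192, Rab3c at -0.0522 to 0.489 and Rab6a at -0.0156 to 0.361. In contralateral against sham, Rab3c was at -0.0929 to 0.492 with 1 library out, and Rapgef4 at -0.265 to 0.00312, and at -0.317 without the libraries of replicate 1. The cause was not tested. The other 652 values of single members kept direction and call. Of counts and ratios, 394 stayed near their main value, each ratio within 1 SD of it. That rule did not ask for direction, and some ratios near 1 crossed it. The Arhgef ratio of ipsilateral to sham (1.01) ran from 0.943 to 1.19 with 1 library out. For Rab regulators and effectors it was 1.04, and 0.984 without the libraries of replicate 1. Depth limits single peaks and the 45 untested members most.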
